A study of Onthophagus taurus with 60 samples.

Results

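In the T2 wing of the horned dung beetle Onthophagus taurus, 164 protein-coding transcripts had a mean level of at most 50% of the mean in each of the other 7 epidermal tissues sampled, a condition that a tissue at 0 together with the wing also meets. They were chosen from the wing values themselves. Among the 21668 predicted mRNAs of the table (identifiers starting with XM_), 8436 had a mean of at least 5 CPM (counts per 1000000 counts of a library) in 1 tissue or more, and a transcript was a member when its wing mean was at most 50% of the mean of each of the other 7 tissues. The 164 members were 1.94% of the 8436, and the whole table held 23725 transcripts. Because the wing was used to choose them, wing values are given below as a description, without a test, and tests are confined to differences among the other 7 tissues and between libraries.

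RNA was sequenced from the epidermis of male prepupae, the last phase of the larval stage, with no treatment. Of the 8 groups, 1 was the wing of the second thoracic segment (T2 wing), and 5 came from the first thoracic segment, namely the thoracic horn, its carinated margin, the margins at its anterior and its posterior edge, and the middle of its dorsal side (dorsal prothorax). The last 2 were the pupal support structures, taken from several segments of the abdomen, and the dorsal head. Each group had 6 biological replicates, and for the wing and the carinated margin the left and right sides of an animal were sequenced apart and summed here, which gave 48 libraries. Dorsal prothorax and dorsal head entered the study as tissues without a published tie to wings, and the question behind it is how horns and other outgrowths of the body wall relate to wings.

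In beetles the wing of the second thoracic segment develops into the elytron, the hardened cover that lies over the flight wing. In the prepupa the epidermis has come away from the larval cuticle, and it folds, grows and begins to secrete the cuticle of the pupa. Horns of Onthophagus males grow out of the prothoracic epidermis in the same phase. A transcript that is low in 1 epidermal tissue may be made by fewer of its cells or at a lower level per cell, and in bulk tissue those cannot be told apart.

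Column totals ran from 12087070 to 21405259 counts outside the head and from 74833089 to 87268357 in the head, so low transcripts were measured more precisely in the head. Over its 12 columns the wing had 200918377 counts, and 3 counts in that total correspond to 0.0149 CPM, the limit that a count of 0 allows. That limit covers counting error only. Of the 164 members 128 matched a gene of the reference, 103 genes in all. Every matched symbol was a locus number and the reference gives no product names, so no function is given to any member. None of the 31 symbols of marker genes looked for (muscle, haemocyte, fat body, neuron, trachea and wing) was found, so the tissue labels and the presence of other cell types could not be checked against markers.

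In most members the wing was not the only tissue where the transcript was close to absent. In 32 of 164 another tissue was at exactly 0 counts together with the wing, since a mean of 0 in both meets the condition. In a further 78 the lowest of the other 7 tissues had a mean above 0 but under 1 CPM, in 25 it lay between 1 and 5 CPM, and in 29 it was 5 CPM or more. Of the 132 members with a lowest tissue above 0, the thoracic horn was that tissue in 57, the dorsal head in 19 and the carinated margin in 15. In 65 of 164 members the horn mean was itself at most 50% of the mean of every one of the remaining 6 tissues, with horn means of 0 included, and scaling the libraries by the trimmed mean of M-values (TMM) left 56. On the CPM scale the horn was the lowest of the 7 tissues in 64.9% of the 8436 transcripts, so a low horn CPM is common in this table. TMM scaling raises horn values relative to the rest, with factors of 0.531 to 0.639 in the horn and none under 0.81 elsewhere. The share over the 8436 is not given on that scale.

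At the other end, the support structures held the highest of the 7 means in 94 of 164 members, or 57.3%, against 22.6% of the 8436 transcripts. Dorsal prothorax held the highest mean in 18 members, or 10.98%, against 36.8% of the 8436. The horn was highest in 22 members, the posterior margin in 14, the anterior and the carinated margin in 6 each and the dorsal head in 4. With TMM scaling the support structures were highest in 91 members and the horn in 39. These shares describe means that the choice of members also used, and they were not tested.

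**Figure D1:**
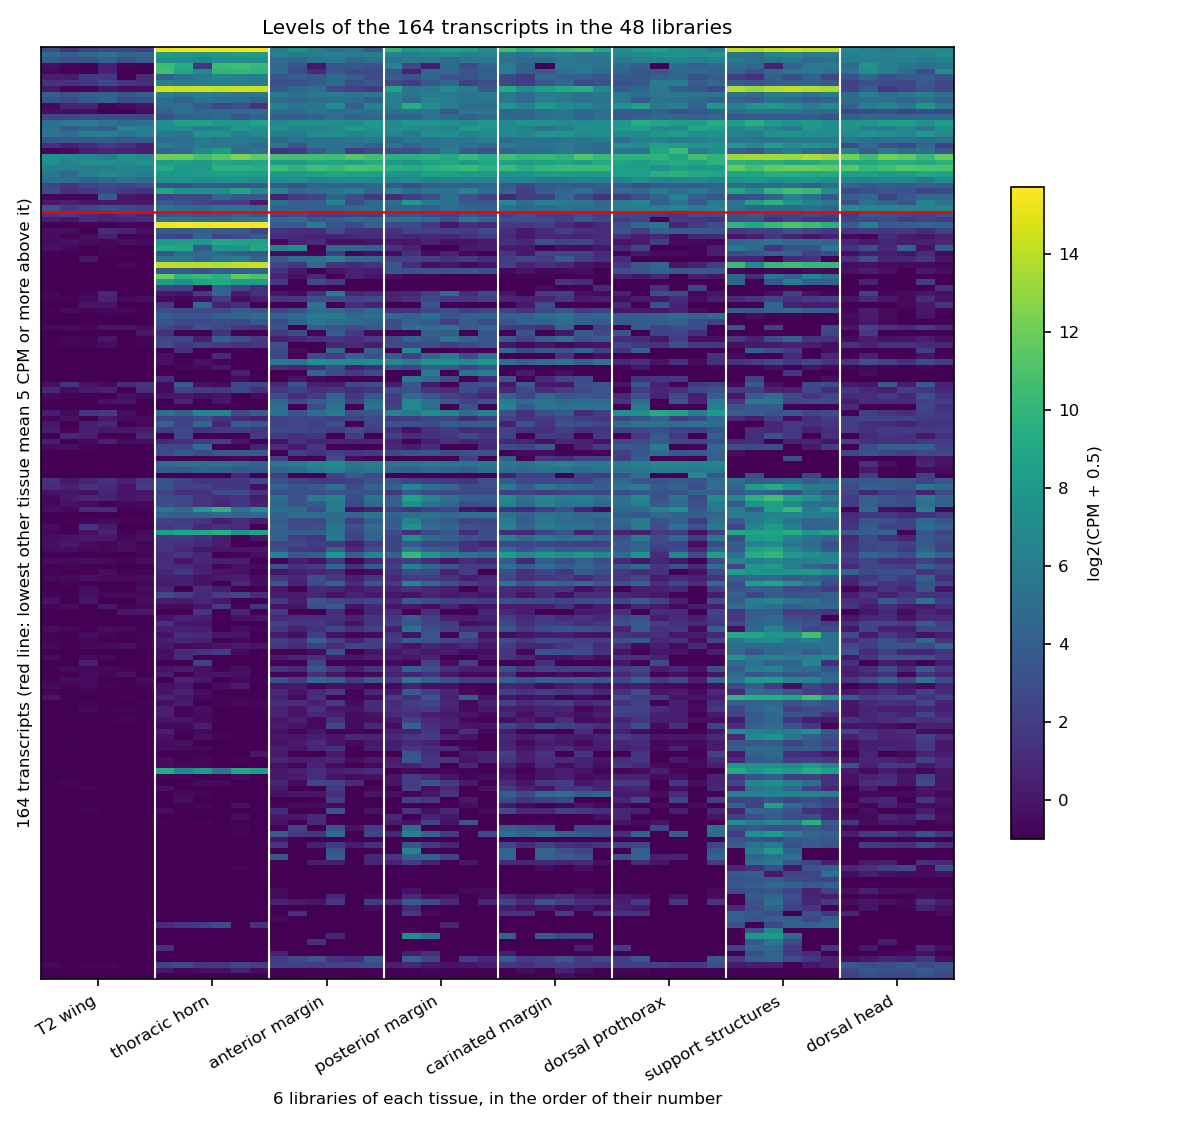
Colour shows log2(CPM + 0.5) of the 164 transcripts (rows) in the 48 libraries (columns, 6 for each of 8 tissues). The 29 rows above the red line had a mean of at least 5 CPM in every tissue other than the wing. Below it the wing columns are close to 0, the horn columns are also low in most rows, and support structures are the brightest block.

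In the wing itself 49 members had no count in any of the 12 columns, 87 had a mean under 0.1 CPM, 28 had a mean of at least 1 CPM and 13 of at least 10 CPM. All 6 wing libraries lay below all 42 other libraries in 25 members, a state that 27 of the 8436 transcripts (0.32%) showed. The members closest to the limit of the rule were LOC111425874 (XM_023060165.1) at 6.03 CPM in the wing against 12.1 CPM in its lowest other tissue, LOC111428529 (XM_023064084.1) at 10.6 against 21.3 CPM and LOC111414406 (XM_023045744.1) at 52.8 against 108 CPM. Just outside it were LOC111426549 (XM_023061123.1) at 0.0645 against 0.128 CPM, LOC111420033 (XM_023052938.1) at 6.54 against 12.9 CPM and LOC111415807 (XM_023047685.1) at 1.29 against 2.54 CPM.

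The 29 members with a mean of at least 5 CPM in every other tissue, a class drawn after the values were seen, were on average not close to absent in any of them. Their lowest other mean was 2.00 to 52.2 times the wing mean, with a median of 3.17 times, and in 18 of the 29 no wing library reached any other library. Those 18 were among the 25 members without such overlap, so the class does not hold every member low in the wing alone. Among these 29 the support structures were highest in 9, the horn in 8, dorsal prothorax in 6 and the posterior margin in 4. The highest of the 7 means was under 2 times the lowest in 3 of them.

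LOC111421705 (XM_023054883.1) was among the 8 members with the highest mean level over the other tissues. Its wing libraries ran from 27.0 to 125 CPM (median 73.7). The horn held 229.9 to 332 CPM (median 280.2), the anterior margin 245 to 458 CPM (median 369), the posterior margin 172 to 368 CPM (median 257) and the carinated margin 186 to 332 CPM (median 259). Dorsal prothorax held 337 to 886 CPM (median 543), the support structures 442 to 682 CPM (median 579) and the dorsal head 263 to 469.9 CPM (median 339). The highest wing library lay below the lowest library of every other tissue. On the CPM scale the 7 others formed a continuous range, with dorsal prothorax and support structures at its top. The tests that follow used TMM scaling, which raises the horn relative to the other tissues, so this order does not carry over to them. Among those 7 it differed by the F-test of edgeR's quasi-likelihood fit (adjusted p = 1.62e-05), and in the carinated margin it fell by 0.89 ± 0.23 log2 units against dorsal prothorax (adjusted p = 0.00678).

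LOC111416398 (XM_023048403.1) had the highest wing CPM of the members, a scale that is not corrected for transcript length. Its wing libraries ran from 94.3 to 187 CPM (median 146), while the posterior margin, the lowest other tissue, held 189 to 532 CPM (median 310.3). The horn held 240.3 to 519 CPM (median 342), the anterior margin 281 to 643 CPM (median 422) and the carinated margin 248 to 554 CPM (median 395). Dorsal prothorax held 293 to 913 CPM (median 487), the support structures 457 to 991 CPM (median 709) and the head 505 to 791 CPM (median 616). The highest wing library was 187 CPM and the lowest of the other 42 was 189 CPM, so the groups did not overlap. It rose by 0.67 ± 0.22 log2 units in the support structures and by 0.70 ± 0.22 in the head over dorsal prothorax (adjusted p = 0.0164 and 0.00886).

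XM_023062727.1, which matched no gene, had nearly equal means outside the wing on the CPM scale. Its wing libraries ran from 9.11 to 20.8 CPM (median 15.8). Its tissue means elsewhere lay between 47.2 CPM in dorsal prothorax and 58.0 CPM in the posterior margin, with single libraries from 28.2 to 77.0 CPM. No wing library reached 28.2 CPM. On the TMM scale the horn was higher than dorsal prothorax by 1.36 ± 0.24 log2 units (adjusted p = 1.37e-05), although the CPM medians were 56.4 and 47.5. The horn libraries had TMM factors of 0.531 to 0.639 and dorsal prothorax 1.16 to 1.35. XM_023053611.1, also without a gene, held 10.3 to 13.6 CPM (median 12.5) in the wing and 29.2 to 47.3 CPM in the head. On the CPM scale the head was its lowest other tissue. Its highest mean on that scale was 71.0 CPM in dorsal prothorax, where the horn mean was 43.0 CPM. The TMM factors just given put its horn above dorsal prothorax.

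LOC111429109 (XM_023064917.1) held 25.5 to 72.3 CPM (median 40.8) in the wing and 115 to 205 CPM (median 155) in the carinated margin, the lowest of the others. On the CPM scale its highest tissue was dorsal prothorax with 243 to 677 CPM (median 424). The carinated margin fell by 1.25 ± 0.30 log2 units below dorsal prothorax (adjusted p = 0.00387), and no wing library reached a library of another tissue. LOC111424176 (XM_023057619.1) held 17.7 to 38.5 CPM (median 30.2) in the wing and on the CPM scale was highest in the support structures with 161 to 233 CPM (median 190.0). On the TMM scale it was higher than in dorsal prothorax by 1.13 ± 0.22 log2 units in the support structures and by 1.81 ± 0.22 in the horn (adjusted p = 4.78e-05 and 8.66e-09). The scales thus differed in which of the support structures and the horn was higher. LOC111426620 (XM_023061231.1) held 3.49 to 10.7 CPM (median 6.03) in the wing. On the CPM scale it was highest in the head with 89.1 to 139 CPM (median 94.7). The head was 1.01 ± 0.21 log2 units over dorsal prothorax (adjusted p = 1.30e-04).

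**Figure D2:**
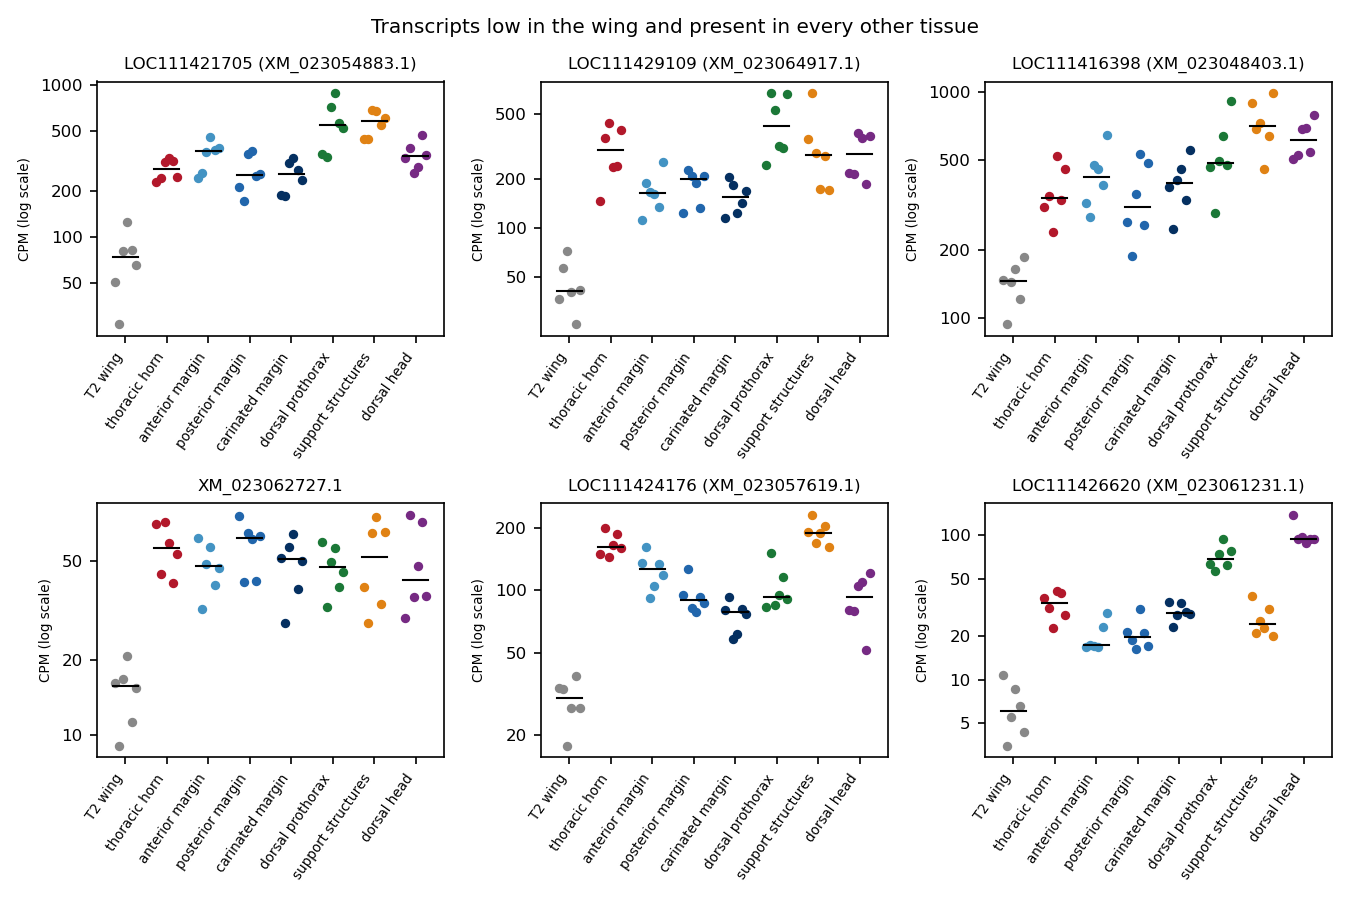
Each panel shows CPM on a log axis for 1 transcript in the 6 libraries of each of 8 tissues (points) with the tissue median (bar). In these 6 members, picked after their values were seen, every wing library lies below every other library.

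LOC111414144 (XM_023045338.1) and LOC111416445 (XM_023048466.1) were far lower in the wing than elsewhere and still well detected there. LOC111414144 held 70.8 to 202 CPM (median 117) in the wing, 562 to 1253 CPM (median 759) in the posterior margin and 9194 to 13489 CPM (median 10506) in the support structures. Library 5 was the highest of 6 in the wing, horn, all 3 margins, dorsal prothorax and support structures. LOC111416445 held 64.5 to 94.98 CPM (median 74.6) in the wing, 177 to 360.0 CPM (median 286) in dorsal prothorax and 1802 to 4069.6 CPM (median 3409) in the support structures. Both rose over dorsal prothorax in the horn (by 3.08 ± 0.35 and 2.15 ± 0.26 log2 units), in the support structures (by 3.72 ± 0.36 and 3.75 ± 0.28) and in the head (by 2.25 ± 0.33 and 3.35 ± 0.27), with adjusted p of at most 4.43e-07.

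The 8 members with the lowest ratio of the wing to the lowest other tissue had no count in the wing at all. They were led by LOC111427029 (XM_023061976.1), at 0 counts in all 12 wing columns. The horn held 15.5 to 26.4 CPM (median 19.0), the anterior margin 16.0 to 49.95 CPM (median 29.6), the posterior margin 20.6 to 45.7 CPM (median 34.4) and the carinated margin 20.95 to 37.2 CPM (median 34.0). Dorsal prothorax held 11.4 to 25.6 CPM (median 18.1), the support structures 58.0 to 87.4 CPM (median 69.1) and the head 1.59 to 3.31 CPM (median 2.48). Every library outside the wing had counts, and against the limit of 0.0149 CPM the head was at least 162-fold higher and the support structures at least 4795-fold higher than the wing. It rose over dorsal prothorax by 2.19 ± 0.20 log2 units in the support structures and fell by 2.43 ± 0.20 in the head (adjusted p = 2.74e-11 and 2.10e-12). All 3 transcripts of this gene were members, and summed they held 0.429 to 0.503 CPM (median 0.479) in the wing and 7.12 to 13.8 CPM (median 11.4) in the head.

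LOC111424214 gave 3 of those 8 members (XM_023057670.1, XM_023057671.1 and XM_023057673.1), and its 8 transcripts summed held 0 to 0.196 CPM (median 0.114) in the wing, 0.409 to 2.72 CPM (median 1.302) in the horn and 10.5 to 79.2 CPM (median 23.1) in the support structures. Wing and horn libraries did not overlap, but all of them lay under 3 CPM. LOC111414917 (XM_023046385.1) had no count in the wing and nearly none in the horn, where it held 0 to 0.381 CPM (median 0.0932). In the anterior margin it held 45.9 to 192 CPM (median 116), in the posterior margin 67.7 to 206 CPM (median 156) and in the carinated margin 17.5 to 41.7 CPM (median 32.3), while dorsal prothorax, support structures and head stayed under 10 CPM in every library. It was highest in the anterior and posterior margins, and 4.62 ± 0.49 log2 units higher in the carinated margin than in dorsal prothorax (adjusted p = 1.69e-08). XM_023061925.1, with no matched gene, held 12.3 to 165 CPM (median 73.0) in the support structures and at most 5.47 CPM in any library elsewhere, at 8.41 ± 1.25 log2 units over dorsal prothorax (adjusted p = 1.10e-06). It became a member through the support structures, the only tissue where its mean reached 5 CPM, so that call supports no direction. The remaining members of the 8 were XM_023061478.1, highest in library 2 of the posterior margin at 123 CPM with a tissue median of 0, and LOC111413182 (XM_023044065.1), with 3.95 to 61.3 CPM (median 19.1) in the posterior margin.

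The members with the highest CPM were transcripts of the horn and the support structures. LOC111428486 (XM_023064023.1) held 2.02 to 7.55 CPM (median 4.97) in the wing against 39478 to 47494 CPM (median 41959.8) in the horn and 13452 to 25551 CPM (median 18856) in the support structures. The other 5 tissues lay in between, from a median of 53.0 CPM in the anterior margin to 1273 CPM in the carinated margin. No wing library reached any other library. Its neighbour in the annotation, LOC111428488 (XM_023064026.1), held 0.0562 to 0.651 CPM (median 0.285) in the wing, 19734 to 24586 CPM (median 23458) in the horn, 9118 to 18710.1 CPM (median 14124) in the support structures and 2.79 to 14.2 CPM (median 5.58) in the head. Relative to dorsal prothorax LOC111428486 rose by 8.93 ± 0.63 log2 units in the horn, 6.91 ± 0.58 in the support structures and 3.01 ± 0.48 in the carinated margin. LOC111428488 rose by 11.28 ± 0.92, 9.70 ± 0.87 and 4.70 ± 0.70 log2 units in the same tissues. The adjusted p of these 6 differences was at most 2.08e-05, and neither passed the test in the head.

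LOC111420100 (XM_023053048.1) held 0 to 0.123 CPM (median 0.0439) in the wing, 42828 to 54491 CPM (median 47634) in the horn and 499 to 2222 CPM (median 1039) in the support structures. In the 3 margins, dorsal prothorax and head it ran from 0.537 to 70.2 CPM, so that it was near absence in the wing and low in 5 further tissues. LOC111418544 (XM_023051091.1) and LOC111418568 (XM_023051107.1), with 2 other genes between them in the annotation, were likewise highest in the horn and next in the support structures. LOC111418544 held 14625 to 20186 CPM (median 17008) in the horn, 108 to 1590.3 CPM (median 1111) in the support structures and 0 to 0.136 CPM (median 0.0146) in the wing. LOC111418568 held 787 to 4058 CPM (median 1544) in the horn, 1.45 to 99.9 CPM (median 31.3) in the support structures and 0 to 0.0296 CPM (median 0) in the wing. In LOC111418568 the wing (up to 0.0296 CPM) and the head (up to 0.0267 CPM) overlapped, both close to 0. LOC111418568 had the lowest p of all members in the F-test among the 7 other tissues (adjusted p = 3.34e-25). It was followed by XM_023047519.1, with 43.3 to 660.4 CPM (median 304) in the horn and 224 to 692 CPM (median 385) in the support structures, and by LOC111428268 (XM_023063719.1), with 246 to 556 CPM (median 341) in the horn and 19.1 to 43.0 CPM (median 27.7) in the support structures. Both were under 10 CPM in every library of the other 6 tissues.

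**Figure D3:**
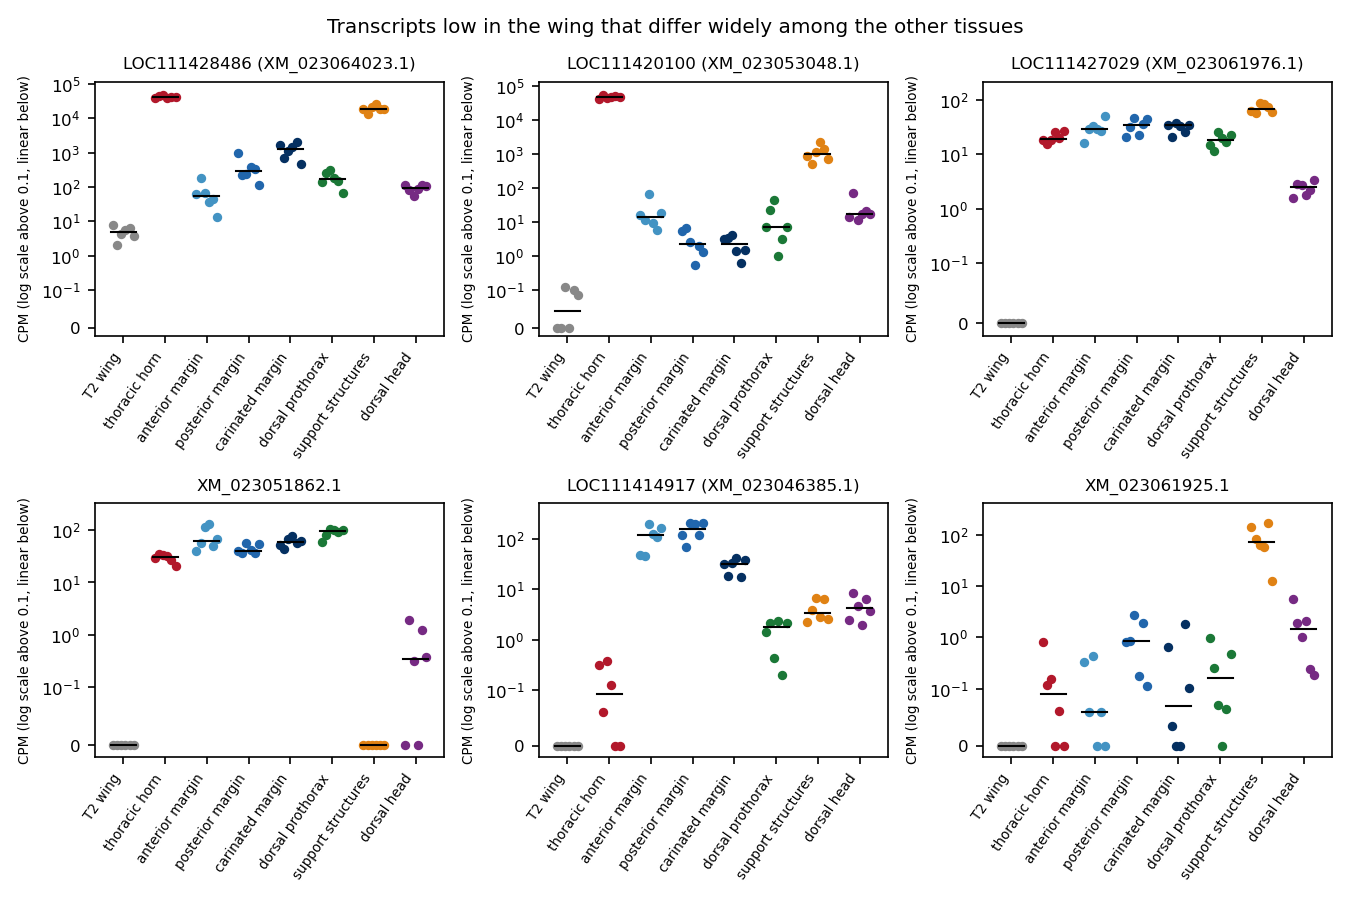
Each panel shows CPM for 1 transcript in the 6 libraries of each of 8 tissues (points) with the tissue median (bar), on an axis that is logarithmic above 0.1 CPM and linear below. LOC111428486 and LOC111420100 peak in the horn. XM_023061976.1, 1 of the transcripts of LOC111427029, has counts everywhere but in the wing. XM_023051862.1 is at 0 in both wing and support structures, LOC111414917 peaks in the anterior and posterior margins, and XM_023061925.1 in the support structures.

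Differences among the 7 other tissues were then tested on all transcripts that passed a filter on low counts, 15239 in all, of which 162 were members. The 2 left out were XM_023060334.1 and LOC111426643 (XM_023061257.1). By the F-test among the 7 tissues 148 members were called at an adjusted p under 0.05, or 91.4% of those tested. Backgrounds are given here and below over the 8425 tested XM_ transcripts with a mean of at least 5 CPM in a tissue, the minimum that members also had to meet, and 74.6% of these were called. The 4 members with the highest p were XM_023063562.1, LOC111427563 (XM_023062772.1), LOC111426831 (XM_023061628.1) and LOC111420033 (XM_023052940.1), with adjusted p from 0.516 to 0.973. XM_023063562.1 reached at most 15.8 CPM in any library and LOC111426831 at most 10.1 CPM, and the other two varied between libraries of different number, as described further on. The fit had no term for number, so differences between numbers counted in it as spread within a tissue. A p that misses the threshold does not show that the tissues were alike.

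Support structures differed from dorsal prothorax in 102 members, 85 higher and 17 lower, or 63.0% of those tested against a background of 42.4%. The higher calls were 52.5% of the tested members where the background was 22.5%, and the lower calls 10.5% where it was 19.9%. The median difference over the tested members was 2.56 log2 units, and over the background transcripts -0.0044. The direction of these calls is in part set by the choice of members, since a transcript low in the wing and most other tissues became a member only if some tissue reached 5 CPM. In 49 members the support structures were the only tissue to do so, while each of the other tissues was that tissue in 0 to 5 members. Of these 49, 47 were tested and 39 called, all higher, and this count supports no direction. The remaining 115 members were all tested, 63 were called, and 46 of these were higher and 17 lower. Of the 85 higher calls 75 were of members with a lowest mean under 5 CPM outside the wing, and among the 29 with at least 5 CPM in every other tissue 14 were called, 10 higher and 4 lower. These classes were drawn after the values were seen. LOC111419116 (XM_023051881.1) was at 0 in the 42 libraries of the other tissues and held 10.6 to 22.0 CPM (median 16.2) in the support structures, at least 574-fold higher (adjusted p = 8.02e-07). That call was lost with DESeq2 (adjusted p = 0.0732). LOC111419116 became a member through the support structures, the only tissue where its mean reached 5 CPM, so the call supports no direction. XM_023060340.1 was at 0 in dorsal prothorax and held 0 to 264 CPM (median 11.4) in the support structures, at least 3094-fold higher (adjusted p = 0.00703). Libraries 2, 3 and 4 held 209.5, 264 and 22.8 CPM and the other 3 held 0, and without replicate 2 or replicate 3 the bound was 1628-fold or 1632-fold. LOC111426960 (XM_023061883.1) was likewise at 0 in dorsal prothorax, with 0 to 56.8 CPM (median 18.2) in the support structures and 148 to 551 CPM (median 299.8) in the horn. It was at least 714-fold higher in the support structures and at least 21322-fold higher in the horn (adjusted p = 9.86e-04 and 2.02e-05), and at least 405-fold in the support structures without replicate 4. Bounds of this kind count 3 reads over the 6 libraries of the tissue at 0. The same libraries of dorsal prothorax serve in all 4 comparisons.

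The 3 members that fell most in the support structures were low there as well as in the wing. They were XM_023051863.1 and XM_023051860.1 of LOC111419103, and XM_023051862.1, which matched no gene. XM_023051862.1 had 0 counts in the wing and in the support structures and 0 to 1.92 CPM (median 0.348) in the head. It held 58.7 to 105 CPM (median 95.2) in dorsal prothorax, 20.6 to 34.3 CPM (median 30.8) in the horn, 40.0 to 132 CPM (median 62.2) in the anterior margin, 37.1 to 57.2 CPM (median 40.4) in the posterior margin and 43.3 to 76.7 CPM (median 58.5) in the carinated margin. It was therefore found in every library of the first thoracic segment and in no library of the wing or the abdomen. The 3 transcripts of LOC111419103 summed to 69.7 to 108 CPM (median 82.99) in dorsal prothorax, 27.5 to 50.5 CPM (median 36.2) in the horn, 0.0229 to 1.84 CPM (median 0.385) in the head, 0 to 0.28 CPM (median 0.0296) in the support structures and 0 to 0.0565 CPM (median 0) in the wing. XM_023051862.1 was at least 2719-fold lower in the support structures than in dorsal prothorax, XM_023051863.1 at least 1617-fold and XM_023051860.1 at least 358-fold (adjusted p of at most 5.97e-10). These 3 transcripts also had fitted differences below 0 in the head, at -6.62 ± 0.68, -7.73 ± 0.62 and -5.61 ± 0.66 log2 units (adjusted p = 1.31e-09, 6.53e-12 and 2.04e-08).

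The horn differed from dorsal prothorax in 73 members, 39 higher and 34 lower, or 45.1% of those tested, close to the background of 42.9%. In the background 19.1% were higher and 23.8% lower. The median over the tested members was -0.21 log2 units and over the background transcripts -0.094. Higher calls were led by LOC111426960, LOC111420100 (12.85 ± 0.97 log2 units, and 13.68 without replicate 3) and LOC111418568 (12.72 ± 0.92). Lower calls were led by transcripts at 0 in all horn libraries after rounding. XM_023058657.1 was at least 336-fold lower than in dorsal prothorax (adjusted p = 0.0163), where it reached 71.0 CPM in library 6 with a tissue median of 0.00357 CPM. That call was lost with the replicate number as a block (adjusted p = 0.0509) and without replicate 6 (0.0603), and the bound was 188-fold without replicate 2 and 155-fold without replicate 6. LOC111413729 (XM_023044823.1) was at least 123-fold lower (adjusted p = 0.0263), a call lost when replicate 1, 2, 4 or 6 was left out, with bounds of 77.6-fold without replicate 2 and 72.3-fold without replicate 6. LOC111429087 (XM_023064893.1) was at least 64.1-fold lower (adjusted p = 0.0016), and at least 35.3-fold and 38.4-fold without those replicates.

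The split of the horn calls by direction moved with the scaling and with single replicates. With total counts in place of TMM 100 members were called, 31 higher and 69 lower, and the median of all tested transcripts moved by -1.10 log2 units. Without replicate 6 the lower calls numbered 10 in place of 34, and without replicate 2 or replicate 4 they numbered 21 each, while the higher calls stayed between 36 and 39 in every such fit.

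The dorsal head differed from dorsal prothorax in 50 members, 29 higher and 21 lower, or 30.9% of those tested, below the background of 53.4%. In the background 30% were higher in the head and 23.3% lower. LOC111424387 (XM_023057893.1) was close to a head transcript, with 4.18 to 9.38 CPM (median 5.48) in the head and at most 0.245 CPM in any other library, at least 263-fold over dorsal prothorax (adjusted p = 3.95e-06). LOC111424359 (XM_023057866.1), which has a single other gene between it and LOC111424387 in the annotation, held 5.30 to 14.4 CPM (median 8.57) in the head and at most 1.10 CPM in any other library. It rose by 8.40 ± 1.24 log2 units (adjusted p = 1.20e-06), and by 9.32 without replicate 2. Both transcripts became members through the head, the only tissue where they reached a mean of 5 CPM. Neither call therefore supports a direction. LOC111417338 (XM_023049585.1) held 0.176 to 7.38 CPM (median 3.06) in the head and 0.538 to 16.1 CPM (median 4.67) in the support structures, at least 151-fold over dorsal prothorax in the head (adjusted p = 1.90e-06) and at least 94.0-fold without replicate 6. The lower calls were led by both member transcripts of LOC111413729, at least 989.8-fold and 553-fold lower, and by LOC111426781 (XM_023061474.1), at least 152-fold lower (adjusted p = 0.00281, 0.0254 and 0.00544). The call of XM_023044814.1 was lost without replicate 2, 4 or 6. Without replicate 2 and without replicate 6 the bounds were 629-fold and 577-fold for XM_023044823.1 and 250.1-fold and 320.3-fold for XM_023044814.1, and without replicate 4 it was 92.9-fold for LOC111426781. With total counts the head split was 22 higher and 31 lower.

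The carinated margin differed from dorsal prothorax in 38 members, 18 higher and 20 lower, or 23.5% of those tested against a background of 15.8%. In the background 9.46% were higher and 6.3% lower. LOC111413927 (XM_023045072.1) held 5.92 to 30.7 CPM (median 18.0) in the carinated margin, 71.3 to 92.7 CPM (median 84.1) in the support structures and at most 2.45 CPM in any other library, and rose by 5.32 ± 0.81 log2 units (adjusted p = 1.23e-05). Without replicate 4 that difference was 5.95. The lower calls were led by LOC111415853 (XM_023047735.1), LOC111426045 (XM_023060389.1) and LOC111424281 (XM_023057778.1), which fell by 7.04 ± 0.81, 5.56 ± 0.66 and 5.34 ± 0.88 log2 units (adjusted p of at most 3.02e-05). LOC111426045 held 7.24 to 20.04 CPM (median 11.2) in dorsal prothorax, 8.93 to 18.1 CPM (median 13.5) in the horn and 8.17 to 11.2 CPM (median 10.03) in the posterior margin, and at most 2.19 CPM in any library of the wing, the anterior and carinated margins, the support structures or the head. Without replicate 3 or replicate 6 the lower calls numbered 11 and 13 in place of 20.

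**Figure D4:**
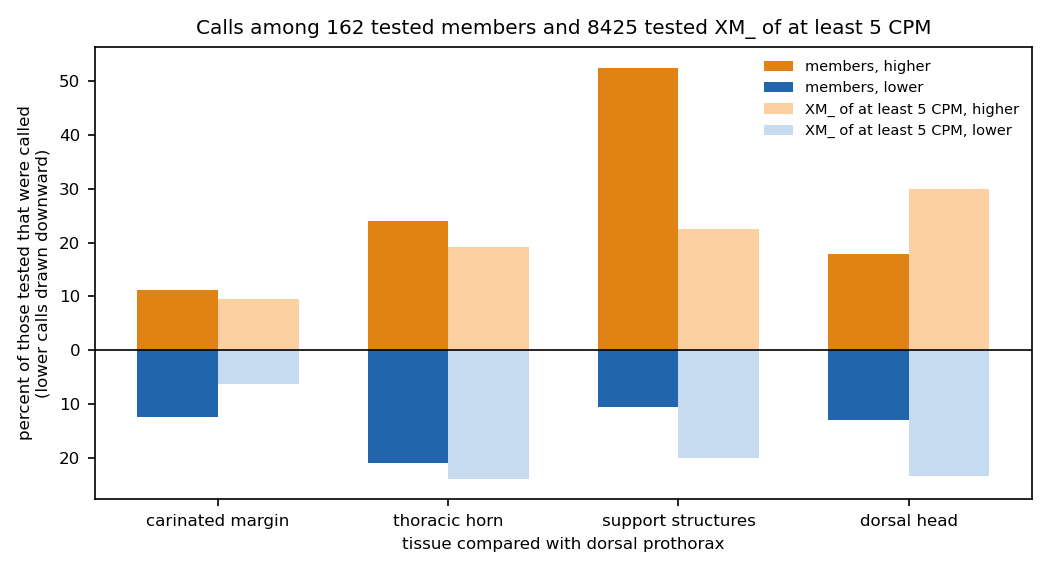
Bars give the percent of those tested that were called higher (upward) or lower (downward) than dorsal prothorax in 4 tissues, for 162 members (dark) and the 8425 tested XM_ transcripts of at least 5 CPM in a tissue (pale). The tallest bar, 52.5%, is that of members higher in the support structures, a direction that the choice of members sets in part.

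The support structures were also set against the remaining tissues, in comparisons that share the 6 libraries of the support structures and whose direction the choice of members again sets in part. Against the horn 123 members were called (background 42.1%), 83 of them higher in the support structures (23.9%). Against the anterior margin 101 were called (34.3%), 88 of them higher (17.7%), and against the posterior margin 98 (36.1%), 81 of them higher (19%). Against the carinated margin 85 were called (32.8%), 74 of them higher (16.2%), and against the head 103 (50.2%), 88 of them higher (24.7%). In the same order the called members were 75%, 61.6%, 59.8%, 51.8% and 62.8% of all 164, tested or not. The 49 members that reached 5 CPM in the support structures alone were not set apart here. The higher calls therefore support no direction. The anterior and posterior margins differed in 11 members (background 1.51%), the anterior and carinated margins in 14 (2.2%) and the posterior and carinated margins in 14 (2.5%).

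The libraries of a tissue were further apart in members than in the 8436 transcripts, which were not matched to them on level. In members without a library at 0, the median ratio of the highest to the lowest library of a tissue was 8.52 in dorsal prothorax, 6.65 in the posterior margin and 5.41 in the support structures, where the same ratio over the transcripts of the larger set was 1.94, 1.87 and 1.86. Certain libraries held the highest value of many members at once. Library 2 of the posterior margin did so for 69 of the 155 members detected there (44.5% against 18.1% of the 8436), library 3 of the support structures for 69 of 158 (43.7% against 24.7%) and library 5 of the head for 65 of 154 (42.2% against 26.9%). Library 4 of the anterior margin did so for 63 of 157 (40.1% against 17.2%) and library 1 of the carinated margin for 58 of 157 (36.9% against 15.3%). Members are not independent of one another, several being transcripts of 1 gene, and what sets these libraries apart was not tested.

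LOC111423918, with 8 member transcripts the gene with the most, shows the pattern. Its 12 transcripts summed held 0.205 to 0.544 CPM (median 0.304) in the wing and 0.467 to 3.66 CPM (median 1.60) in the horn. The support structures held 8.64 to 589.9 CPM (median 94.0) with library 3 highest, the posterior margin 7.69 to 165 CPM (median 17.3) with library 2 highest and the anterior margin 5.66 to 62.6 CPM (median 15.4) with library 4 highest. The carinated margin held 27.3 to 81.9 CPM (median 50.1), dorsal prothorax 2.97 to 67.6 CPM (median 19.7) and the head 4.12 to 35.8 CPM (median 12.4). Every wing library lay below the lowest library of each tissue other than the horn. LOC111413732 (XM_023044825.1), LOC111427530 (XM_023062720.1) and LOC111421633 (XM_023054807.1) had their highest values in the same libraries of the posterior margin, anterior margin, support structures and head. LOC111427530 held 41.8 to 883 CPM (median 149) in the support structures, 10.7 to 248 CPM (median 34.1) in the posterior margin and 0.491 to 0.956 CPM (median 0.622) in the wing. With the 5 libraries named above left out, 146 transcripts met the rule, 143 of them members, and support structures still differed from dorsal prothorax in 94 members, 77 of them higher.

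**Figure D5:**
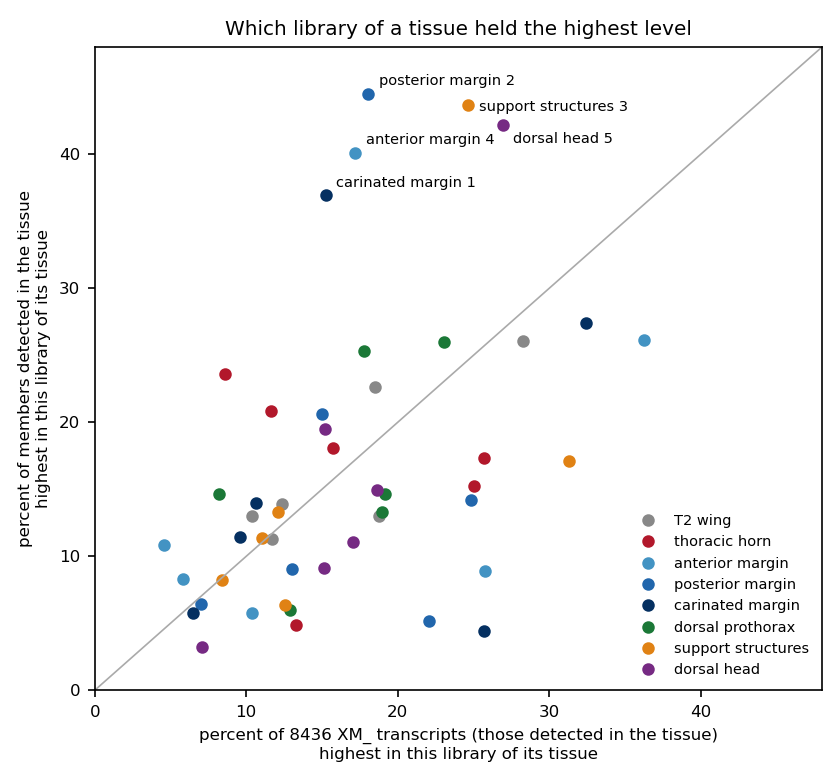
Each point is a library. The horizontal axis gives the percent of the XM_ transcripts of at least 5 CPM that were highest in it among the 6 libraries of its tissue, the vertical axis the same percent for members, and the line marks equal percents. The 5 named libraries lie well above the line, at 36.9% to 44.5% of members.

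Other members followed the library number across tissues. In a fit of the 36 libraries outside wing and head, with tissue and number as terms, 60 of 158 tested members differed between numbers, a share below the background of 49.1%. This test was added after the data had been seen. LOC111427563 (XM_023062772.1) ran from 9.57 to 13.2 CPM over the 6 tissues in libraries numbered 2, from 3.29 to 8.05 in those numbered 5 and from 4.14 to 9.26 in those numbered 6. In libraries numbered 1, 3 and 4 it stayed at or below 1.26 CPM. These sets, drawn after the values were seen, did not overlap. The test, here (adjusted p = 6.92e-10) and for the members below, asked whether any number differed and not which numbers did. Wing libraries 2, 5 and 6, which the test left out, held 2.56, 1.70 and 2.40 CPM against 0.355, 0.399 and 0.169 in libraries 1, 3 and 4. Head libraries did not follow these numbers, with 12.3 CPM in number 3 and 0.486 in number 2.

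LOC111420033 (XM_023052940.1) was carried by number 3, at 7.22 to 41.7 CPM over the 6 tissues, while no library of another number passed 2.66 CPM (adjusted p = 2.10e-04). The reverse held for XM_023054389.1, which reached 1602 CPM in the horn library of number 5 and at most 2.76 CPM in any of the 6 tissues of number 3 (adjusted p = 2.54e-07). LOC111421706 (XM_023054885.1) had the lowest p between numbers (adjusted p = 1.88e-11). It held 18.9 to 78.3 CPM in number 4, whose wing library held 13.6 CPM while the 5 other wing libraries held at most 0.544 CPM. Outside the wing and head, number 5 at 6.29 to 31.6 CPM and number 3 at 3.87 to 21.4 CPM overlapped number 4. LOC111428003 (XM_023063385.1) was highest in number 5 in all 6 tissues and in the wing, where it held 13.0 to 84.5 CPM (median 30.3), and it differed between numbers (adjusted p = 5.67e-10). It did not pass the F-test among the 7 tissues (adjusted p = 0.0726). That fit had no term for number and counted such differences as spread, so the tests cannot be set against each other.

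For some genes the low wing value belonged to a single transcript and not to the gene. Of the 103 genes 41 had several XM_ transcripts in the table, in 7 of these every transcript was a member, and with transcripts summed 20 of the 41 met the rule. LOC111413729 had 19 transcripts, 2 of them members. Summed, it had the highest mean of all 8 tissues in the wing, 1896 CPM against 1780 CPM in the support structures. Its libraries held 1099 to 2556 CPM (median 1944) in the wing and 75.1 to 145 CPM (median 102) in the horn, its lowest tissue. LOC111418345, with 1 member (XM_023050886.1) among 3 transcripts, also had its highest summed mean in the wing, 53.3 CPM against 51.6 CPM in the support structures. In LOC111422534 the member XM_023055753.1 held 0 to 0.539 CPM (median 0) in the wing and 22.4 to 74.9 CPM (median 46.2) in the horn, while XM_023055738.1 of the same gene held 26.8 to 105 CPM (median 57.5) in the wing and 0 to 12.7 CPM (median 0) in the horn. XM_023055753.1 was higher in the carinated margin than in dorsal prothorax by 4.71 ± 1.00 log2 units (adjusted p = 0.0011), but after rounding only library 1 of dorsal prothorax had a count above 0, and without replicate 1 or 4 the difference was 10.30 or 3.98. The 62 genes with a single XM_ transcript have no such ambiguity within the table.

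In the order of genes along the annotation, 10 of the 103 genes formed 5 pairs of direct neighbours. These were LOC111428488 and LOC111428486, LOC111421706 and LOC111421705, LOC111426960 and LOC111426916, LOC111418300 and LOC111418345, and LOC111413729 and LOC111413732. Neighbours did not always share their tissues. LOC111426916 (XM_023061804.1) was highest in dorsal prothorax with 27.6 to 39.4 CPM (median 34.9) and held 1.16 to 23.3 CPM (median 12.7) in the horn, where its neighbour LOC111426960 peaked. LOC111418300 (XM_023050835.1) held 14.999 to 100.2 CPM (median 38.6) in the support structures and 0 to 0.521 CPM (median 0.149) in the wing, and LOC111418345 (XM_023050886.1) held 0.546 to 25.9 CPM (median 1.86) in the support structures, with library 3 highest in both. Reads of near-identical neighbours may have been divided between them by the counting, which was not tested.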

How the data were processed

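Per the labels' protocols, an RNeasy Plus Micro kit gave the RNA and a TruSeq Stranded mRNA kit the libraries. The authors deposited 1 table of expected counts per transcript in 60 columns. Trimmomatic 0.32, Bowtie2 2.3.2, RSEM 1.3.0 and DESeq2 were used, per the submitters' processing notes. The genome build was not given in the sources used here, nor were the annotation and the strand setting. RSEM divides reads that match several transcripts by an estimate, so values of transcripts of 1 gene depend on each other. Of the values 29.7% lay more than 0.001 from a whole number, and counts were rounded for testing.

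CPM is a count per 1000000 counts of its column and is not corrected for length, so levels are compared within a transcript only. Tissue means for the choice of members ran over all columns of a tissue. The 12 wing and 12 carinated margin columns name no side. Column k and column k + 6 deviated together from the tissue mean (wing, r of 0.147 to 0.336; carinated margin, 0.139 to 0.232; other pairings, at most 0.0929) and were summed as 1 library. Libraries of the same number deviated together in the 21 pairs of tissues without the head (r of 0.133 to 0.546) and not in the 7 with it (-0.154 to 0.0628), so outside the head the numbers were taken to pair libraries. No 2 columns were identical.

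All 48 libraries were fitted at once with edgeR 4.0.16 (R 4.3.3, limma 3.58.1), with TMM scaling, filterByExpr (minimum count 10, minimum total 15), a term for tissue, the quasi-likelihood test and Benjamini-Hochberg adjustment over all tested transcripts, called at an adjusted p under 0.05. Log2 differences are given ± SE. The fit was checked on simulated counts. DESeq2 1.42.0, other scalings, filters, replicate blocks and left-out replicates were alternatives. Members and lists were chosen with earlier results of these data known. Transcripts were named by fixed rules (lowest ratio of wing to lowest other tissue, highest level, lowest and highest F-test p, largest called differences, neighbouring genes, values near the threshold). Those of the evenly low class, of the patterns by library and number and of the comparison of transcripts within a gene were picked after their values were seen. Gene symbols and gene order came from the RefSeq annotation of assembly IU_Otau_3.0, with no coordinates used.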

Additional observations from a re-analysis of the deposited data

Results flagged for a closer look

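The members named by the lowest ratio of the wing to the lowest other tissue, by the highest level and by the lowest or highest F-test p were tested in every tissue whose 6 libraries were not all equal. Among these 176 groups 41 held 1 library whose gap to the nearest of the others, as a share of the group's range, passed Dixon's 95% critical value for 6 values. Chance gives about 1 in 20 such groups only where values are normally distributed, and the shares were taken on CPM without a check of that. A group with counts in a single library has a share of 1 however few they are, as for LOC111418568 in the wing. The 41 groups therefore cannot be set against 1 in 20. Members also share libraries and genes, so the groups are not independent. Shares are given in the order of the tissues named, and no cause was tested.

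LOC111420033 (XM_023052940.1) had library 3 high in the horn (0.902), the anterior margin (0.960), the posterior margin (1), the carinated margin (0.914), dorsal prothorax (0.855) and the support structures (0.959), and library 6 high in the head (0.755). LOC111424214 had library 2 high in the posterior margin for XM_023057670.1 (0.738) and XM_023057671.1 (0.899). XM_023057671.1 also had library 3 high in the horn (0.798) and library 4 in the anterior margin (0.783), and XM_023057673.1 had library 1 high in the horn (0.726) and library 5 in the head (0.645). XM_023061478.1 had library 2 high in the horn (0.959), the posterior margin (0.999, at 123 CPM against 0.0916 CPM for the next library) and dorsal prothorax (0.871), and library 5 in the head (0.998). LOC111413182 (XM_023044065.1) had library 4 high in the horn (0.792) and the carinated margin (0.870), and library 6 in dorsal prothorax (1). XM_023061925.1 had library 1 high in the horn (0.813), library 5 in the carinated margin (0.643) and library 1 in the head (0.646), and XM_023063562.1 had library 3 high in the support structures (0.664).

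Of the members abundant in horn and support structures, LOC111418544 had library 5 high in the wing (0.775), library 3 in the anterior margin (0.851), library 1 in the posterior margin (0.837) and library 3 in dorsal prothorax (0.645), and library 2 low in the support structures (0.648). LOC111428486 had library 2 high in the anterior margin (0.680) and library 1 in the posterior margin (0.684), where LOC111428488 (0.713) and LOC111418568 (0.693) also had library 1 high. LOC111418568 had library 1 of the wing alone above 0 (1). LOC111420100 had library 3 high in the anterior margin (0.782) and library 2 in the head (0.839). Library 3 of dorsal prothorax was high for XM_023047519.1 (0.731) and LOC111428268 (0.849). LOC111414144 had library 5 high in the anterior (0.746) and the posterior margin (0.642), and LOC111416445 had library 2 low in the carinated margin (0.637).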

How the results depend on the processing

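The number of transcripts that met the rule moved most with its own limits. It was 340 with a highest mean of at least 1 CPM, 94 with at least 20 CPM, 278 with tissue medians, 85 genes with the transcripts of a gene summed, and 29 with at least 5 CPM required in every other tissue, an alternative added after the data were seen. With TMM scaling it was 205, of which 158 were members, and leaving out a replicate gave 153 to 181. The counts of called members stayed within 1.5 times the reported ones in all alternatives run. Leaving out a replicate gave 27 to 36 for the carinated margin, 49 to 69 for the horn, 83 to 104 for the support structures, 44 to 49 for the head and 137 to 150 for the F-test. With the replicate number as a block the counts were 45, 76, 105, 65 and 153 in the same order, and 49, 83 and 110 for the first 3 with the head left out of that fit. DESeq2 gave 44, 82, 103, 58 and 139. Fitting only the tissues compared gave 51 for the horn, 38 higher and 13 lower, with fewer libraries and 98 members tested. Of 345 alternative values for named members 334 kept their direction and their side of the threshold, 11 missed the threshold and none reversed. These 11 belonged to 4 transcripts, and the cause was not tested: LOC111419116 in the support structures with DESeq2 (adjusted p = 0.0732), XM_023058657.1 in the horn with the replicate block (0.0509), with that block fitted without the head (0.0553) and without replicate 6 (0.0603), XM_023044823.1 in the horn without replicates 1, 2, 4 or 6 (0.0520 to 0.0650) and XM_023044814.1 in the head without replicates 2, 4 or 6 (0.0531 to 0.0576). Apart from XM_023058657.1 the block ended no call of a named member. Members with means under 1 CPM in a tissue rest on few counts there.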

Other observations

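The rule was also met by 3 of the 213 transcripts with identifiers starting with XR_, predicted non-coding RNAs, that reached 5 CPM in a tissue. XR_002708029.1 (LOC111428029) held 16.3 to 42.0 CPM (median 30.8) in the wing and was highest in the dorsal head with 207 to 554 CPM (median 449.7). XR_002706900.1 held 1.16 to 15.4 CPM (median 4.43) in the support structures and XR_002706899.1 held 0.744 to 19.3 CPM (median 8.69), and both had 0 counts in the other 7 tissues.

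The same rule applied to each of the other tissues in turn returned 1732 XM_ transcripts for the thoracic horn, 354 for the dorsal head, 105 for dorsal prothorax, 98 for the support structures, 48 for the posterior margin, 36 for the anterior margin and 19 for the carinated margin. In the horn 969 of the 1732 had at least 5 CPM in every other tissue, where the wing had 29 of its members. All these counts are on the CPM scale. The horn libraries had TMM factors of 0.531 to 0.639 and no other tissue had one under 0.81, so TMM scaling raises horn values relative to the rest. The horn counts therefore depend on the scaling and are not given on the TMM scale.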
